A study of Arabidopsis thaliana with 8 samples.

Results

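Transcripts of 6 Arabidopsis thaliana genes whose products work in or at the thylakoid lumen were followed in wild-type plants and in a tatA line, described in the labels as defective in twin-arginine translocation. They were AT5G35100 (a cyclophilin-type peptidyl-prolyl isomerase), AT1G76450 (a PsbP-domain protein), AT5G13410 (FKBP19, an FK506-binding-protein-type isomerase), AT5G52970 (TL15, a lumenal protein), AT5G46390 (one of the C-terminal processing peptidases) and AT4G14870 (SECE1, a subunit of the thylakoid Sec translocase). These genes were chosen by locus, with earlier results of these data known, each from a spot annotated with exactly 1 gene. They make up 6 of 689 loci so named on the array and of 3439 spots in all. Of the 6, 4 passed the filter on zeros, and the other 2 were listed at 0 on most arrays.

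The study held 8 single-colour arrays of total RNA, 4 of WT (ecotype Columbia 0) and 4 of a tatA line in the same ecotype, which the labels call an antisense line in one place and a mutant in another. Tissue, plant age and growth conditions are not given in the labels, nor whether replicates came from separate plants, so p-values measure the spread between these arrays, which may be technical. TATA itself, the gene targeted in the line, is not analysed here, so no value of it checks the labels. Deposited values are spot intensities on a linear scale from 0 to 100, read as brightness relative to the array; the number of arrays, 4 per group, limits their precision.

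The thylakoid lumen is the space enclosed by the photosynthetic membrane of the chloroplast. Its proteins are made in the cytosol, enter the chloroplast with a transit peptide, and then cross the thylakoid by one of several routes. The Sec route, a SecA motor with a SecY and SecE channel, threads unfolded proteins through the membrane. The twin-arginine translocation (TAT) route carries folded proteins on the energy of the ion gradient, and TatA is the subunit that gathers at the active translocase. The lumen is rich in PsbP-like proteins and in immunophilins, the cyclophilins and FK506-binding proteins that catalyse turns at proline residues.

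Median spot intensity lay between 0.429 and 0.531 on the WT arrays and between 0.365 and 0.390 on the tatA arrays, and between 172 and 248 spots per array were at 0. The arrays were therefore quantile-normalised on the log2 scale before testing, and each log2 change below is tatA minus WT on that scale unless the deposited scale is named. Of 3261 genes or spots tested, 1046 passed at a limma adjusted p under 0.05 (32.1%): 499 higher (15.3%) and 547 lower (16.8%) in tatA. Without normalization 310 were higher and 1080 lower, the median over all rows being -0.47 (log2). The arrays of a group fell into pairs of like profile, replicates 1 and 2 and replicates 3 and 4. Fitting these pairs as a random block left 537 rows past the threshold (16.5%; 8.92% higher and 7.54% lower), and averaging each pair left 57 (1.75%).

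Of the 4 genes that entered the fit, 3 passed, as did 32.1% of all rows: AT5G35100 and AT5G46390 were higher in tatA and SECE1 was lower. The remaining gene, AT1G76450, entered through its WT signal alone, and its fitted value is set by what replaced its zeros. These 3 also passed when replicate pairs formed a random block, as did 16.5% of all rows. Once each pair was averaged, 0 of 4 passed at an adjusted p under 0.05 (limma), where 1.75% of all rows did. AT5G35100 and AT5G46390 had unadjusted limma p-values of 0.00716 and 0.00242 in that averaged fit. On the deposited scale the 4 tatA arrays lay on 1 side of the 4 WT arrays for 4 of the 6 genes. For AT5G35100, AT5G46390 and SECE1 both groups had signal, while for AT1G76450 the separation rests on its zeros. Such a separation was found for 43.0% of all rows tested (9.29% with tatA higher and 33.7% with tatA lower). Those rows leave out FKBP19 and TL15.

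**Figure D1:**
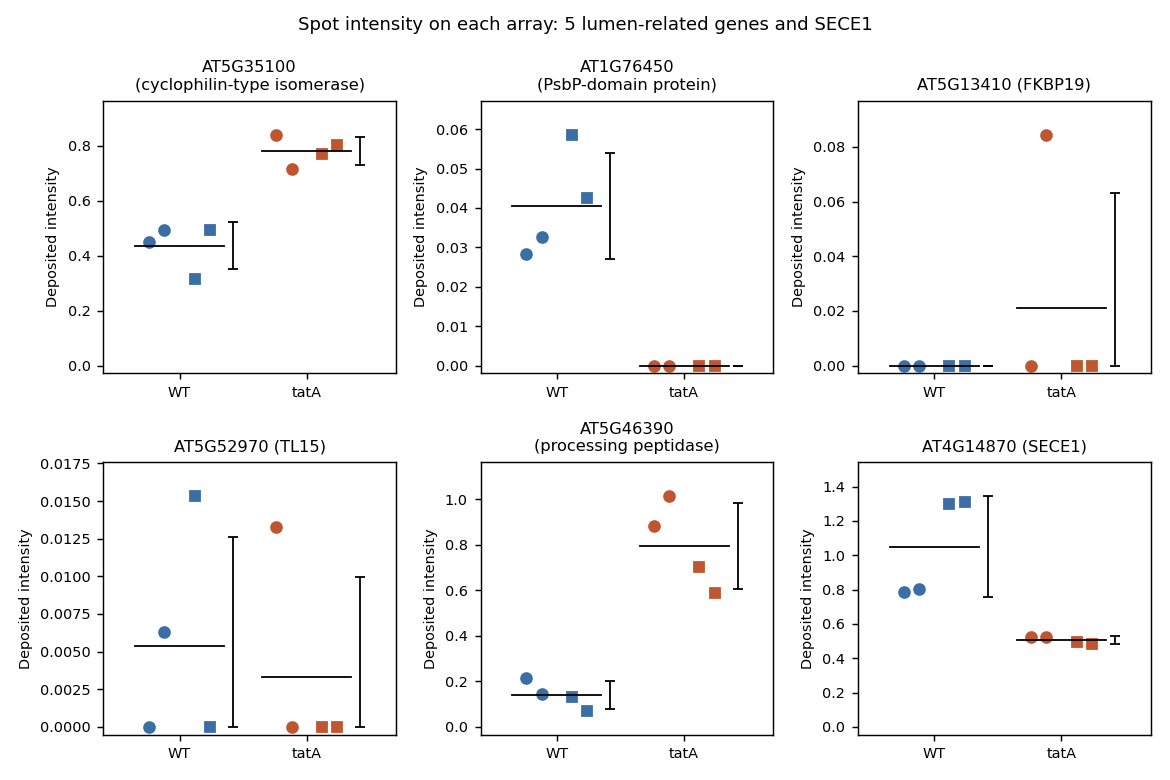
Deposited spot intensity (linear scale, arbitrary units, own axis from 0 in each panel) of the 6 genes on 4 WT and 4 tatA arrays. Circles are replicates 1 and 2, squares replicates 3 and 4, horizontal lines the group means and vertical bars 1 SD, cut at 0. AT5G35100 and AT5G46390 lie higher on all 4 tatA arrays, SECE1 lower, AT1G76450 is at 0 on all 4, and FKBP19 and TL15 are at 0 on most arrays of both groups.

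The immunophilin AT5G35100 was higher in the tatA line. Its intensity was 0.448, 0.493, 0.315 and 0.492 on WT replicates 1 to 4, and 0.840, 0.717, 0.770 and 0.802 on tatA replicates 1 to 4. The groups did not overlap, and WT replicate 3 was the lowest array. The means were 0.437 ± 0.0839 in WT and 0.782 ± 0.0518 in tatA (SD, n = 4 arrays each), a ratio of 1.79 on the deposited scale. After normalization AT5G35100 rose by 1.23 in log2 units (SE 0.20, 95% confidence interval 0.77 to 1.68, limma adjusted p = 0.00221).

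The rise was present in both pairs of replicates. In replicates 1 and 2 the mean intensity of AT5G35100 went from 0.471 to 0.778, a ratio of 1.65, and in replicates 3 and 4 from 0.404 to 0.786, a ratio of 1.95. Normalized and tested alone, the 2 pairs gave log2 changes of 0.98 and 1.47 (limma adjusted p = 0.00999 and 0.0105). In these fits 919 of 3261 rows passed for replicates 1 and 2, and 1456 for replicates 3 and 4. The limma adjusted p of AT5G35100 was 0.0202 when the pairs formed a random block and 0.0908 when each pair was averaged. The position of the spot within each array, which no scaling changes, lay between percentiles 31.4 and 55.6 in WT and between 76.1 and 80.3 in tatA. The spot with the next number, 0.470 ± 0.0440 in WT and 0.485 ± 0.0350 in tatA (SD, n = 4 arrays each), did not share the rise.

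The other immunophilin, FKBP19, had signal on a single array. It was listed at 0 on all 4 WT arrays and on tatA replicates 1, 3 and 4, with an intensity of 0.0843 on tatA replicate 2. A single array thus carries the tatA mean of 0.0211 ± 0.0422 (SD, n = 4 arrays), and no fold is given. With signal on 1 array, a permutation of the arrays can give no p other than 1, so no test is given. The spots numbered before and after it gave signal on all 8 arrays, from 0.0359 to 0.890. The FKBP19 spot gave signal on 1 of 8 arrays, so whether FKBP19 differed between the groups could not be seen here.

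AT1G76450 was dim in WT and listed at 0 throughout the tatA line. PsbP-domain proteins are relatives of PsbP, an extrinsic subunit that sits on the lumenal face of photosystem II beside the oxygen-evolving cluster. Its intensity was 0.0282, 0.0327, 0.0585 and 0.0425 on WT replicates 1 to 4 and 0 on all 4 tatA arrays. The WT mean was 0.0405 ± 0.0134 (SD, n = 4 arrays), between percentiles 7.44 and 7.94 of the spots on each WT array. No fold is given against a group at 0. In the fit across all rows, which sets a 0 to the smallest positive value of its array, AT1G76450 had a limma adjusted p of 0.122, and over 12 other settings it ran from 1.70e-06 to 0.554. These p-values rest on the value put in for the zeros, so neither a difference nor its absence is read from them.

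The spot with the next number, annotated as AT4G35660, was bright and changed the other way. It read 2.57, 2.44, 0.751 and 0.515 on WT replicates 1 to 4 and 8.64, 8.04, 6.50 and 5.64 on tatA replicates 1 to 4. AT1G76450 was at 0 where this neighbour was above 5. Within WT its lower readings, on replicates 1 and 2, were on the arrays with the brighter neighbour. Those were also the dimmer WT arrays, with medians of 0.429 and 0.43 against 0.531 and 0.524. As percentiles within each array, AT1G76450 lay at 7.444, 7.938, 7.88 and 7.735 on WT replicates 1 to 4, replicate 2 being the highest. The spot with the number before was at 0 on WT replicates 1 and 2 and tatA replicates 1, 2 and 4, and at most 0.121 elsewhere. No source used here says whether neighbouring numbers lie side by side on the array, and the part of the neighbour in the zeros of AT1G76450 was not tested.

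TL15 was at the edge of detection in both groups. It was at 0 on WT replicates 1 and 4 and read 0.0063 and 0.0153 on WT replicates 2 and 3. In the tatA line it read 0.0133 on replicate 1 and 0 on replicates 2 to 4. The groups overlapped, with means of 0.0054 ± 0.0072 and 0.0033 ± 0.0066 (SD, n = 4 arrays each). The exact two-sided permutation test on values scaled to the 75th percentile gave p = 1, and on the deposited scale p = 0.714. With signal on so few arrays, no arrangement of them can bring this test under 0.05. It therefore shows neither a difference in TL15 nor its absence. The spots numbered before and after TL15 gave signal on all 8 arrays, from 0.140 to 0.408.

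AT5G46390 had the largest change among the 3 genes that passed. C-terminal processing peptidases are serine proteases of the lumen, and the family is known for trimming the C-terminal extension of the precursor of photosystem II subunit D1; which substrates this member cuts is not known from the sources used here. Its intensity was 0.216, 0.143, 0.132 and 0.0687 on WT replicates 1 to 4, and 0.885, 1.01, 0.701 and 0.588 on tatA replicates 1 to 4. The lowest tatA array stood above the highest WT array, and in both groups replicate 4 was the lowest. The means were 0.140 ± 0.0606 and 0.797 ± 0.189 (SD, n = 4 arrays each), a ratio of 5.70 on the deposited scale.

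After normalization AT5G46390 rose by 3.04 in log2 units (SE 0.44, 95% confidence interval 2.05 to 4.02, limma adjusted p = 0.00114), the 16th largest value of 646 rows with a gene name. By replicate pair, the mean intensity of AT5G46390 went from 0.180 to 0.949 in replicates 1 and 2, a ratio of 5.28, and from 0.1001 to 0.644 in replicates 3 and 4, a ratio of 6.44. Both pairs passed alone, with log2 changes of 2.70 and 3.32 (limma adjusted p = 0.00369 and 0.00494). So did 919 of 3261 rows in replicates 1 and 2 and 1456 in replicates 3 and 4. The call of AT5G46390 was kept when the pairs formed a random block (adjusted p = 0.0072) but not when each pair was averaged (0.0647). Since the WT level was low, the size depends on the offset before log2, and with an offset of 0.118 the rise was 2.10. The spots numbered before and after it did not share the rise, having WT means of 0.437 and 0.475 and tatA means of 0.237 and 0.444. In percentile terms the spot moved from between 9.16 and 26.6 in WT to between 67.9 and 84.9 in tatA.

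SECE1 was lower in the tatA line. SecE is the small clamp subunit that holds the SecY channel together, and SECE1 is its form in the thylakoid Sec translocase. Its intensity was 0.784, 0.806, 1.30 and 1.31 on WT replicates 1 to 4, and 0.527, 0.524, 0.494 and 0.482 on tatA replicates 1 to 4. The groups did not overlap, the tatA arrays were close together, and the WT arrays formed 2 levels, replicates 1 and 2 below replicates 3 and 4. The array medians had the same division in WT (0.429 and 0.430 against 0.531 and 0.524). After quantile normalization SECE1 was at -0.42 and -0.36 (log2) on WT replicates 1 and 2, and at 0.06 and 0.09 on WT replicates 3 and 4. The part of array brightness in the WT split of SECE1 was not tested. The spot with the next number, AT2G23070, was likewise lower on WT replicates 1 and 2 than on 3 and 4. It read 0.238, 0.236, 0.469 and 0.374 on WT replicates 1 to 4 and 0.269, 0.160, 0.186 and 0.0469 on tatA replicates 1 to 4. Its groups overlapped, but its mean was also lower in tatA, at 0.165 ± 0.0916 against 0.329 ± 0.114 in WT (SD, n = 4 arrays each).

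The means of SECE1 were 1.05 ± 0.293 in WT and 0.507 ± 0.0220 in tatA (SD, n = 4 arrays each). SECE1 fell by 0.64 in log2 units (SE 0.15, 95% confidence interval -0.99 to -0.29, limma adjusted p = 0.0135), and by 1.01 on the deposited scale, where the median of all rows was itself at -0.47. WT exceeded tatA 1.51-fold in replicates 1 and 2 and 2.67-fold in replicates 3 and 4 on the deposited scale. Tested alone after normalization, replicates 1 and 2 gave -0.33 (limma adjusted p = 0.110) and replicates 3 and 4 gave -0.94 (0.00388). Of 3261 rows, 919 passed in replicates 1 and 2 alone and 1456 in replicates 3 and 4 alone. The difference between the pairs was not tested. The limma adjusted p of SECE1 was 0.0407 when the pairs formed a random block and 0.224 when each pair was averaged. In total RNA of whole samples, fewer cells that express a gene and less transcript per cell cannot be told apart.

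**Figure D2:**
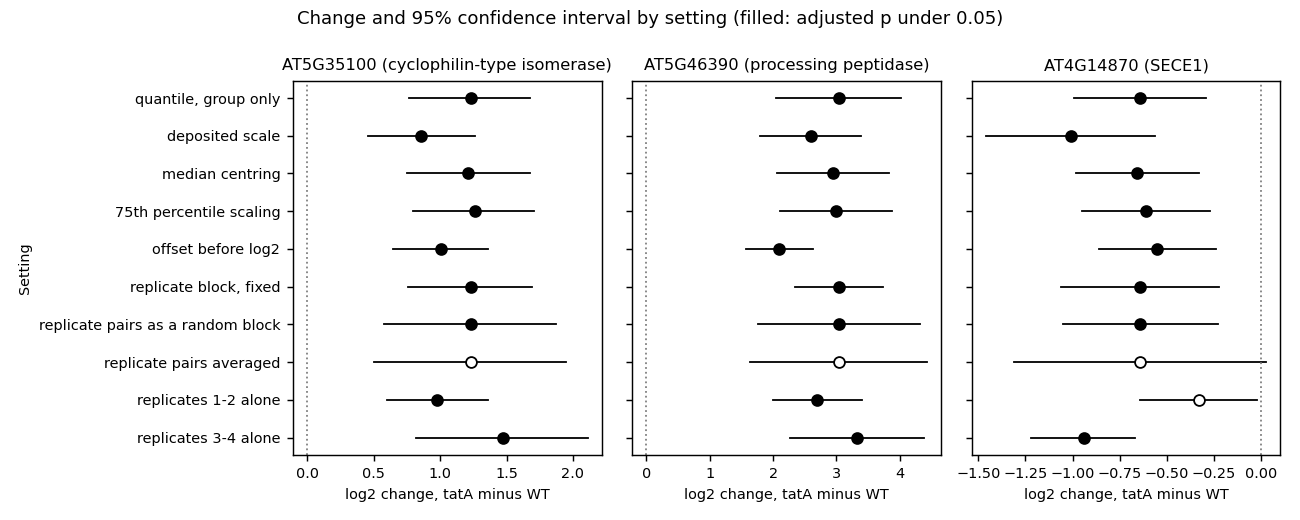
Log2 change (tatA minus WT, x axis, own range in each panel) with its 95% confidence interval for the 3 genes that passed, in 10 settings of normalization and replicate structure (y axis). Filled points had a limma adjusted p under 0.05. AT5G35100 and AT5G46390 are open only with replicate pairs averaged, SECE1 also in replicates 1 and 2 alone.

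The sign of these 3 changes was the same in each of 14 other settings. The log2 change of AT5G35100 ran from 0.86 to 1.47 over them, that of AT5G46390 from 2.10 to 3.38, and that of SECE1 from -1.01 to -0.33. The wide range of SECE1, as the plot of settings shows, came from the deposited scale at one end and replicates 1 and 2 at the other.

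Genes with the most similar profile over the 8 arrays were taken from 598 other named genes with no 0, by Pearson correlation of normalized log2 values. For AT5G35100 these were AT5G22620 (r = 0.984), AT5G02830 (0.981) and AT5G09820 (0.980). For AT5G46390 they were AT3G06870 (r = 0.978), AT1G73470 (0.972) and AT4G21770 (0.968). For SECE1 they were AT4G38990 (r = 0.990), AT4G14050 (0.982) and AT2G03390 (0.980). All 9 passed between the groups in the direction of the gene they resemble (limma adjusted p from 0.000902 to 0.025). The arrays of a correlation share their group and their scaling, so any pair of genes with a large group difference of the same sign correlates highly here.

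Few other genes listed for the lumen or for transport routes could be set beside them. Of 47 other genes for lumenal proteins listed, 4 were on the array under a single gene, and of 19 genes for transport routes and their processing enzymes, 1. Of the 4 lumenal genes, 0 were higher in tatA, 1 was lower and 3 did not pass, and their median log2 change was -0.21. Over all rows 15.3% were higher and 16.8% lower, with a median of -0.09, and when replicate pairs formed a random block 0 of these 4 passed (limma adjusted p from 0.0931 to 0.425, the lowest unadjusted p being 0.0214). That 1 was LPA19, an assembly factor of photosystem II in the lumen that assists the C-terminal processing of D1. LPA19 read 0.442, 0.458, 0.819 and 0.688 on WT replicates 1 to 4 and 0.214, 0.309, 0.256 and 0.268 on tatA replicates 1 to 4. The groups did not overlap, and WT was again lower on replicates 1 and 2.

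LPA19 fell by 0.82 in log2 units (SE 0.20, limma adjusted p = 0.0151), its means being 0.602 ± 0.183 in WT and 0.262 ± 0.0389 in tatA (SD, n = 4 arrays each). The call was lost when the pairs formed a random block (adjusted p = 0.0931), when each pair was averaged (0.200) and in replicates 1 and 2 alone (-0.59, 0.172).

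PSB27, a lumenal factor in the assembly and repair of photosystem II, was the brightest of these genes on its own spot, from 3.48 to 5.82 in WT and from 1.80 to 3.0 in tatA. Its groups did not overlap on the deposited scale, where 33.7% of all rows were lower in tatA without overlap. In both groups of PSB27 replicate 1 was the highest array and replicate 4 the lowest. Its log2 value was -0.59 (SE 0.21, limma adjusted p = 0.0605), which missed the threshold. PSB27 passed in a paired comparison, the replicate number being a block (adjusted p = 0.00193), and on the deposited scale (-0.91, adjusted p = 0.00503). On that scale the median of all rows was itself at -0.47. PSB27 missed the threshold under median scaling (-0.56, limma adjusted p = 0.0854) and 75th percentile scaling (-0.52, 0.11). Leaving out 1 array, PSB27 passed without WT replicate 4 (-0.75, 0.0303) or tatA replicate 1 (-0.70, 0.0415) and missed the threshold in the other 6 fits. It missed the threshold when replicate pairs formed a random block (0.237).

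PSAN, a photosystem I subunit on the lumenal side, ran from 1.67 to 2.24 in WT and from 1.62 to 1.81 in tatA, and the groups overlapped. Its log2 value was 0.16 (95% confidence interval -0.06 to 0.39, limma adjusted p = 0.227), and -0.16 on the deposited scale. AT1G74070, also in the lumenal list, ran from 1.26 to 1.63 in WT and from 1.12 to 1.27 in tatA. Its log2 value was 0.21 (95% confidence interval -0.10 to 0.52, adjusted p = 0.255), and -0.18 on the deposited scale. The median over all rows lay at -0.47 on that scale, so both genes stood above it, and their values were positive under quantile, median and 75th percentile scaling (for PSAN 0.16, 0.19 and 0.24, and for AT1G74070 0.21, 0.17 and 0.22).

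The gene measured from the transport-route list was AT4G38490, which was near the limit of detection. It has no symbol in the annotation used here, and where its product works was not examined. It read 0.0111 and 0.0139 on WT replicates 1 and 2 and 0 on WT replicates 3 and 4. In the tatA line it was at 0 on replicates 1 and 3 and read 0.115 on replicates 2 and 4. The split ran within each group rather than between them, and AT4G38490 did not pass (limma adjusted p = 0.380).

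**Figure D3:**
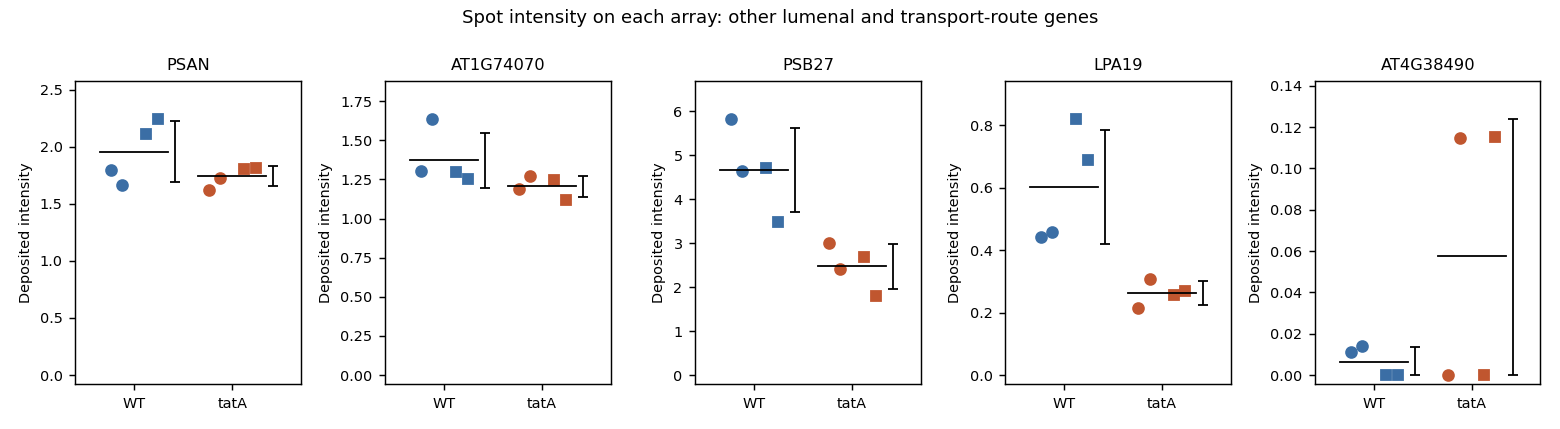
Deposited spot intensity (linear scale, arbitrary units, own axis from 0 in each panel) of 4 other genes for lumenal proteins and of AT4G38490, from the transport-route list, on 4 WT and 4 tatA arrays. Circles are replicates 1 and 2, squares replicates 3 and 4, horizontal lines the group means and vertical bars 1 SD, cut at 0. PSB27 and LPA19 are lower on all 4 tatA arrays, PSAN and AT1G74070 overlap between groups, and AT4G38490 is at 0 on 2 arrays of each group.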

How the data were processed

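The deposited table holds intensity, linear and between 0 and 100, for 3439 spots on 8 arrays. The steps by which the authors read, background-corrected and scaled the spots are not given in the sources used here. Groups and replicate numbers come from the sample titles. The platform annotation gives 1 gene for 692 spots, of which 690 matched a locus of the RefSeq annotation (TAIR10.1), used for names only.

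Spots at 0 on more than 4 arrays, 177 in all, were left out, other zeros took the lowest value above 0 on their array, and log2 and quantile normalization followed. Quantile normalization removes any overall difference between the groups. Spots of the same gene were averaged, which left 3261 rows, 646 with a gene name. The test was that of limma 3.58.1 under R 4.3.3 (lmFit, eBayes with an intensity trend, two-sided, group as the only term), with Benjamini-Hochberg adjustment over all rows. The script was run on simulated data with 200 changed rows. Those arrays were drawn independently, without replicate pairs or zeros, so that run does not bear on calls that pairs or zeros affect. TL15 was compared by exact permutation (scipy 1.17.1), which with so few arrays with signal can give no p under 0.05. For FKBP19, with signal on 1 array, it can give no p but 1. Figures used matplotlib 3.10.9 in Python 3.11.15.

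To check whether replicate numbers pair the arrays, deviations from group means were correlated across genes between WT and tatA arrays of the same number. This gave 0.284, 0.311, 0.266 and 0.337, all over 0.1, so the replicate number was used as a block in an alternative fit. Between WT and tatA arrays of different numbers the values ran from -0.241 to 0.131. The highest of these, tatA replicate 3 with WT replicate 4, was also over 0.1. No label says what a number marks. Alternatives were the deposited scale, median and 75th percentile scaling, an offset, 3 filters, 2 variance models, the replicate number as a block, the pairs 1-2 and 3-4 as a random block, averaged or alone, and each array left out. The genes, lists, tests and alternatives were chosen with earlier results of these data known. Genes named are the 6, each listed gene found on the array, the 3 genes most correlated with each passing gene, and spots with neighbouring numbers that bear on a result. A search of the proteins for a twin-arginine pair was planned and not run, since no protein sequences were used here.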

Additional observations from a re-analysis of the deposited data

Results flagged for a closer look

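Of 20 groups of 4 arrays with differing values, over these 6 genes and the 5 other genes described, 3 held an array whose gap to the next exceeded Dixon's 95% critical share of the group's range. In 2 of these, 1 array had signal and the others were at 0, which fixes the gap at the whole range, so that the rate of about 1 in 20 groups that chance gives does not apply to them. FKBP19 read 0.0843 on tatA replicate 2 and 0 on the other tatA arrays. TL15 read 0.0133 on tatA replicate 1 and 0 on the other tatA arrays. AT1G74070 read 1.63 on WT replicate 2, with the other WT arrays between 1.26 and 1.30.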

How the results depend on the processing

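The count of genes and spots that passed was 1046, against 537 with replicate pairs as a random block and 57 with each pair averaged. Leaving out 1 array at a time gave counts from 784 to 951. With each pair averaged, AT5G35100 (log2 change 1.23, limma adjusted p = 0.0908), AT5G46390 (3.04, 0.0647) and SECE1 (-0.64, 0.224) no longer passed. That fit had fewer values per group, and its SEs were larger. They went from 0.20 to 0.28 for AT5G35100, from 0.44 to 0.54 for AT5G46390 and from 0.15 to 0.26 for SECE1. The part of each in the lost calls was not tested. SECE1 also did not pass in replicates 1-2 alone (-0.33), and the cause was not tested. AT1G76450 passed without a filter on zeros (adjusted p = 1.70e-06) and without the intensity trend (0.00244), and both rest on the value set for its zeros. It was absent from the fits without the dimmest 25% and without spots at any 0.

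Without 1 array, the change of AT5G35100 ran from 1.03 to 1.33, that of AT5G46390 from 2.64 to 3.37 and that of SECE1 from -0.72 to -0.56, and all 3 passed in each of 8 fits. The adjusted p of AT1G76450 ran from 0.101 to 0.248. PSAN (-0.16) and AT1G74070 (-0.18) had negative values on the deposited scale, where all rows shift by a median of -0.47, and in no other setting. PSAN passed in replicates 1-2 alone (0.33, limma adjusted p = 0.0298), as did 919 of 3261 rows, but not in replicates 3-4 alone (0.01, 0.884). AT1G74070 passed in replicates 3-4 alone (0.32, limma adjusted p = 0.0386), as did 1456 rows, but not in replicates 1-2 alone (0.09, 0.588). The difference of TL15, -0.000804 of the 75th percentile, was -0.00556 without tatA replicate 1, 0.00226 without WT replicate 3 and 0.000781 without tatA replicate 2, 3 or 4.

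With the replicate number as a replicate block, 1027 passed, and of the 9 genes of the lists with a value in that fit PSB27 alone changed its call. The low signal of FKBP19, TL15, AT1G76450 and AT4G38490, each at 0 on 4 to 7 arrays, limits what can be said of them.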
